A study of Mus musculus with 10 samples.

Results

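Exons carry the parts of a gene that stay in its RNA: coding exons specify the protein, the 5' and 3' untranslated regions (UTRs) flank the coding part, and noncoding exons make up long noncoding RNAs and transcripts with no open reading frame. Mature sperm do not transcribe their genome, and most of their DNA is packed by protamines, so that accessible sites are measured against a compact background. Accessible exonic sites away from any transcript start lie in the bodies and at the ends of genes.

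Accessible exonic and UTR regions outside promoters were examined in ATAC-seq of mature sperm, an assay in which the Tn5 transposase cuts open DNA. Sperm came from the cauda epididymis of wild-type C57BL/6JRccHsd males acquired at 3 weeks of age and fed for 6 months either a chow control diet with 14% protein (F0 CD, n = 6) or a Western diet with 40% of its energy from fat and 43% from carbohydrate (F0 WD, n = 4), with 1 library per mouse. The sample titles give these numbers, whereas the protocol text swaps them. The peak intervals of the 10 libraries were joined into 113093 regions on chromosomes 1 to 19 of GRCm38 (mm10), with an overlap of 1 bp as the minimum, and the 24550 with a peak in at least 2 libraries are called consensus regions. A consensus region was an exonic region where it lay more than 3 kb from every GENCODE M21 transcript start and overlapped an exon of any transcript, and 565 of the 24550 (2.3%) did. Where a region touched several kinds of exon, it was placed in the first of 5' UTR, 3' UTR, coding exon and noncoding exon. By this order 10 were 5' UTR, 182 were 3' UTR, 286 were coding exon and 87 were noncoding exon regions, and 47 touched 2 or more kinds. The other consensus regions were 9225 intronic, 10548 intergenic and 4212 promoter regions.

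The sequence at the strongest summit, the base with the highest peak within a region, follows for a selection of the regions with a peak in most libraries of each class and for the regions that passed the diet test. Each line gives 30 bases of the plus strand of GRCm38, with exonic bases in capitals and intronic bases in lower case. The class on a line is that of the region, and the summit can lie in other sequence.
Slc30a4, 3' UTR, chr2:122681848-122681877: ACAGACCTGGAGGTGGGATTATGAGTTTGC
Tmcc1, 3' UTR, chr6:116022186-116022215: CGTCCTGTTGCGTGTCTTCATGAGGGGGAC
Lars2, 3' UTR, chr9:123461994-123462023: AGCGACGTCGCTTTTTGATCCTTCGATGTC
Sfi1, 3' UTR, chr11:3132380-3132409: CCCTTTGAAGAGATATATTGGCTAATAAAG
Speer4e, 3' UTR, chr5:14933923-14933952: GCAGCCGCCTCAGTTCTCTGCCAAGAGACG
D130052B06Rik, coding exon, chr11:33623822-33623851: TGTCCTGCACTGGTGACCCATCTACACTGT
Arid2, coding exon, chr15:96370418-96370447: GAGTACAGAGCATACCAGCGTGTACATCTA
Chia1, coding exon, chr3:106129028-106129057: tattggctgtatagtactctgtgaattatg
Shcbp1, coding exon, chr8:4753923-4753952: ctctctcacacacacacactcacacataca
Gm46123, noncoding exon, chr9:83352546-83352575: ACACCACACACACACACACACATATACCAT
F630040K05Rik, noncoding exon, chr17:45780351-45780380: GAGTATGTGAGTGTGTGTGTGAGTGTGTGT
Ncmap, 5' UTR, chr4:135380613-135380642: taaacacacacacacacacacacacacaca
Sesn3, 5' UTR, chr9:14308783-14308812: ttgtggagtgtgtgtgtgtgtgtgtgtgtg
Sec31b, 5' UTR, chr19:44536064-44536093: AGGATTAAAGTCCAAGGCTCTGACAGCTCC

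The deposited lists held 13366 to 29532 peak intervals per library, and the smallest called summits rested on 9 to 13 reads, so a missing peak does not show that a site was closed. F0 CD 3 and F0 WD 4 stood apart from the rest: 44.1% and 44.9% of their intervals on chromosomes 1 to 19 fell in consensus regions, against 47.9% to 57.8% in the other 8 libraries, and 47.5% and 48.9% of their summits lay at repeat-masked bases, against 53.5% to 62%. As a check of the cell type, 6 of 53 sperm and spermatid genes, 2 of 35 genes of the epididymal epithelium and 3 of 26 immune cell genes had a consensus region within 1 kb of a transcript start. These numbers do not set sperm apart from the other cell types. The paper judged purity by qPCR, reporting a mature sperm marker enriched and the germ cell marker C-kit and epithelial marker E-cadherin absent.

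Between 133 and 237 exonic regions had a peak in a library. The median of the F0 CD libraries was 165 over the whole of this range, and the F0 WD libraries had 180, 162, 160 and 144. The diets overlapped, and the F0 CD mean of 169 ± 38.1 (SD, n = 6) and the F0 WD mean of 162 ± 14.7 (SD, n = 4) did not differ beyond this spread (difference -7.5, exact permutation test over 210 splits, two-sided p = 0.776). As a share of all consensus regions with a peak in the same library, exonic regions made up 1.69% to 2.2% in F0 CD and 1.9%, 1.82%, 1.8% and 2.45% in F0 WD. The highest share in each diet belonged to F0 CD 3 and F0 WD 4, and the mean difference of 0.15 percentage points did not pass the test (exact permutation p = 0.39).

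**Figure D1:**
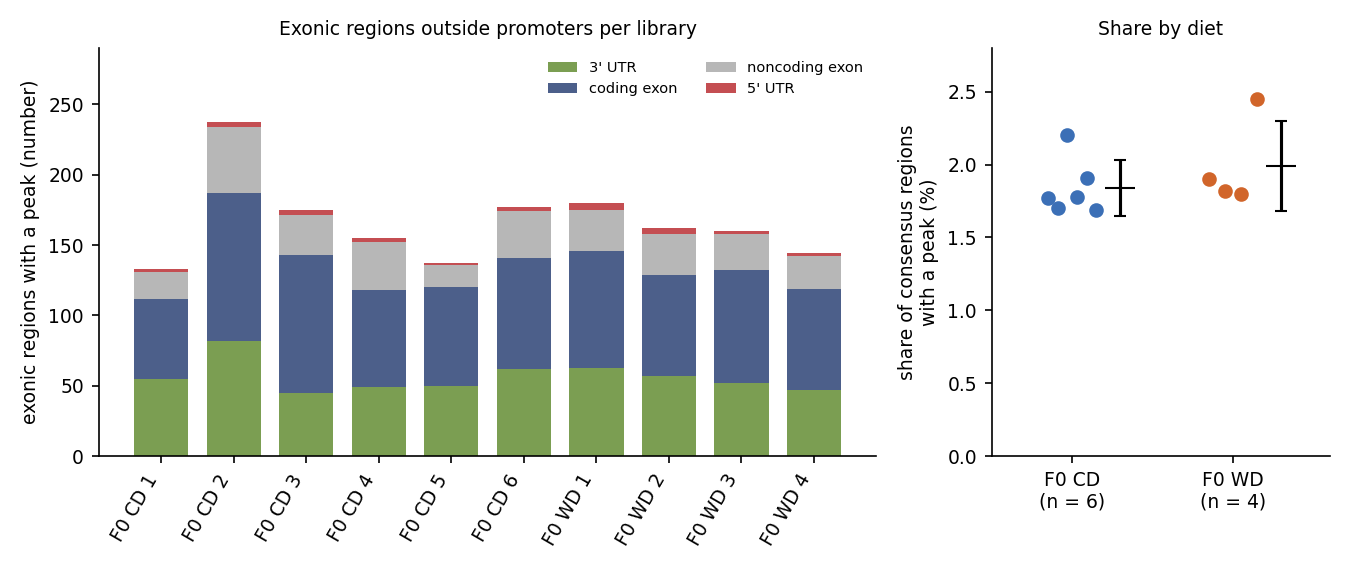
Left, the number of exonic regions outside promoters with a peak in each of the 10 libraries, stacked by class. Right, their share of the consensus regions with a peak, as points per library with mean and SD for F0 CD (n = 6) and F0 WD (n = 4). F0 CD 2 held the most exonic regions (237), and F0 CD 3 and F0 WD 4 had the highest shares (2.2% and 2.45%).

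Within the exonic regions of a library the classes kept similar proportions in both diets. Coding exon regions made up 47.2% ± 5.17 (SD, n = 6) of the exonic regions with a peak under the control diet and 47.6% ± 2.81 (SD, n = 4) under the Western diet. For 3' UTR regions the shares were 34.1% ± 5.21 and 33.8% ± 1.46, for noncoding exon regions 17.1% ± 3.79 and 16.6% ± 0.902, and for 5' UTR regions 1.57% ± 0.541 and 1.97% ± 0.765, with the same n. No class passed the exact permutation test, with p from 0.362 to 0.914 and adjusted p of 0.914 for all 4 classes. F0 CD 3 had the highest coding exon share (56%) and the lowest 3' UTR share (25.7%) of the 10 libraries.

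Exonic regions were shared by fewer libraries than the other consensus regions. Of the 565, 359 (63.5%) had a peak in exactly 2 libraries, against 45.5% of the 23985 other consensus regions, and 80 (14.2%) had a peak in 5 or more, against 26.6%. An exonic region with a peak in a given library had peaks in 2.71 to 3.38 other libraries on average, against 3.45 to 4.15 for intronic and intergenic regions of the same library. The difference had the same sign in all 10 libraries and averaged -0.974 libraries (exact sign-flip test over libraries, two-sided p = 0.00195, the smallest that 10 libraries can give). Among regions with a peak in at least 3 libraries it was -0.442 (exact sign-flip p = 0.00195). All regions compared had to have peaks in at least 2 libraries, the same count that is compared here. A region enters the value of every library that holds it, so the 10 values are not independent of each other. For both reasons the p-values of these differences are not taken as support, and the shares are a description. The classes were close to each other on this measure, with 66.1% of coding exon, 61.5% of 3' UTR, 59.8% of noncoding exon and 60% of the 5' UTR regions found in exactly 2 libraries.

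**Figure D2:**
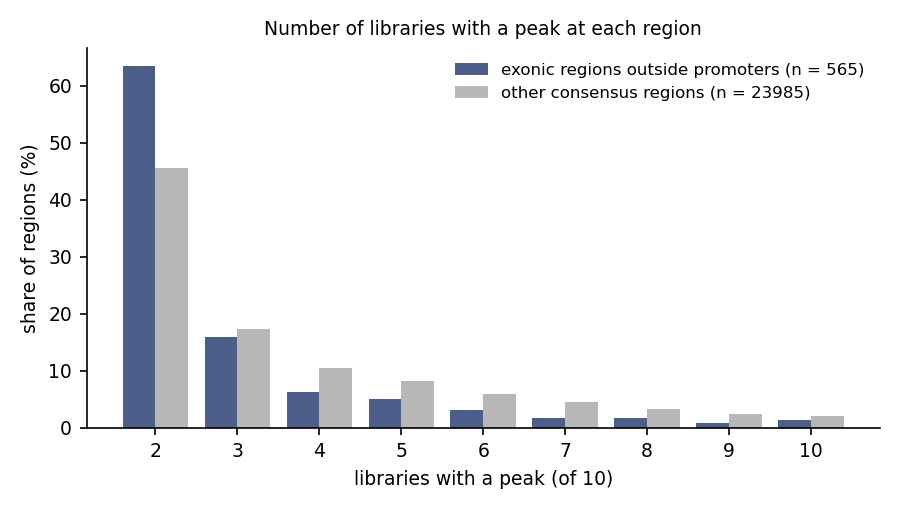
Share of the 565 exonic regions outside promoters and of the 23985 other consensus regions (vertical axis, percent) by the number of libraries with a peak (horizontal axis). Of the exonic regions 63.5% had a peak in exactly 2 libraries, against 45.5% of the others.

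The peaks at exonic regions also ranked lower by p-value. Each peak was ranked within its own list by its p-value, from 0 to 100 with 100 the strongest, and the median rank of the exonic regions with a peak was 53.7 ± 3.87 (SD, n = 10) against 62.8 ± 2.34 for intronic and intergenic regions. The difference was -9.16 rank points on average (exact sign-flip p = 0.00391). It was negative in 9 libraries, from -6.61 to -15.3, and 0 in F0 CD 4. It was -4.96 with the same number of best peaks from every list (exact sign-flip p = 0.00391) and -4.89 for regions in at least 3 libraries (exact sign-flip p = 0.0176). Over regions, the median rank was 53.1 for 3' UTR, 48.7 for noncoding exon, 44.6 for coding exon and 37.6 for 5' UTR. On the same measure intronic regions had 57.3 and intergenic regions 58.1. Median reads at the summit were nearly equal, 16 for the exonic and 16.5 for the other consensus regions.

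The 8 exonic regions with a peak in all 10 libraries were in Lars2, Sfi1, Slc30a4, Tmcc1 (3' UTR), D130052B06Rik, Rab3c, Lama3 (coding exon) and F630040K05Rik (noncoding exon). The strongest lay in the last exon of Lars2, the mitochondrial leucyl-tRNA synthetase, at chr9:123461805-123462273. Its fold over the local background was 12.88 to 18.19 in F0 CD (median 15.58), and 16.72, 12.57, 14.34 and 15.35 in F0 WD. The diets overlapped, and every library was above the folds of the other 7 regions, which stayed between 2.95 and 8.65. The Lars2 region held no repeat-masked base, and the 30 bases printed for it occurred at 2 places in the reference. As background, this 3' UTR is known to hold sequence shared with the large ribosomal RNA, whose many gene copies the reference does not fully hold, so the origin of these reads is uncertain, and the part of such copies in the peak was not tested. The Sfi1 region at chr11:3132102-3132547, in a gene for a centrin-binding protein, had its strongest summit in a noncoding exon. It had 34 to 52 reads in F0 CD and 33, 26, 29 and 42 reads in F0 WD. Its local background was 4.38 to 9.12 reads, in the median 2.1 times the lowest background of the library, where the median for Slc30a4 was 1.22. What this higher background reflects was not tested.

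Slc30a4, a zinc transporter, carried its peak in a 4101-base last exon at chr2:122681335-122682337, 20302 bp from the start of the transcript. Reads at its summit numbered 21 to 46 in F0 CD (median 32.5), and 31, 29, 25 and 23 in F0 WD, within the F0 CD range. Tmcc1, a membrane protein of the endoplasmic reticulum, had 17 to 52 reads in F0 CD (median 27.5) and 29, 15, 25 and 18 in F0 WD. The highest value, 52 reads, was that of F0 CD 3, and the next F0 CD value was 29. A further 3' UTR region of Tmcc1 had peaks in 2 F0 CD and 3 F0 WD libraries.

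Among coding exon regions, D130052B06Rik was the one of these 8 whose summit lay in coding sequence, in an exon of 1866 bases. It had 17 to 32 reads in F0 CD (median 23.5) and 23, 30, 20 and 15 in F0 WD. The summits in Rab3c, a small GTPase of vesicle exocytosis, and Lama3, a laminin chain of basement membranes, lay in introns beside short exons of 125 and 116 bases, and exon made up 11.4% and 15.9% of these regions. Rab3c had 15 to 27 reads in F0 CD (median 19) and 23, 17, 16 and 15 in F0 WD. Lama3 had 21 to 29 reads in F0 CD (median 24) and 16, 23, 20 and 17 in F0 WD, so that the ranges overlapped between 21 and 23 reads. F630040K05Rik, a long noncoding RNA, had 16 to 26 reads in F0 CD (median 18) and 21, 18, 14 and 17 in F0 WD. The 50 bases around its summit occurred at 2 places in the reference, which leaves the origin of part of its reads uncertain.

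A further 5 exonic regions had a peak in 9 libraries and 10 had one in 8. The 4 of them that were named for their class follow. Shcbp1, whose protein binds the adaptor SHC1, had its summit in an intron beside a 93-base coding exon, with 21, 15, 18, 15 and 24 reads in F0 CD 2 to 6, and 31, 22, 25 and 23 in F0 WD. The other 3 were noncoding exon regions of long noncoding RNAs. Gm46123 had 25, 22, 16, 15 and 22 reads in F0 CD 1, 2, 3, 5 and 6, and 17, 9, 14 and 17 in F0 WD. The region of 2700054A10Rik at chr17:13540027-13541543 had 35, 18, 45, 21, 21 and 22 reads in F0 CD and 27, 15 and 18 in F0 WD 1, 3 and 4. Exon made up 9.23% of it and its summit was intronic. The local background of 2700054A10Rik was 3.86 to 8.34 reads, in the median 1.89 times the lowest of the library. AI838599 at chr4:3252600-3253404, also with an intronic summit, had 29, 33, 20, 41 and 25 reads in F0 CD 1, 3, 4, 5 and 6, and 27, 15 and 18 in F0 WD 1, 2 and 3. In all 4 the ranges of the diets overlapped.

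**Figure D3:**
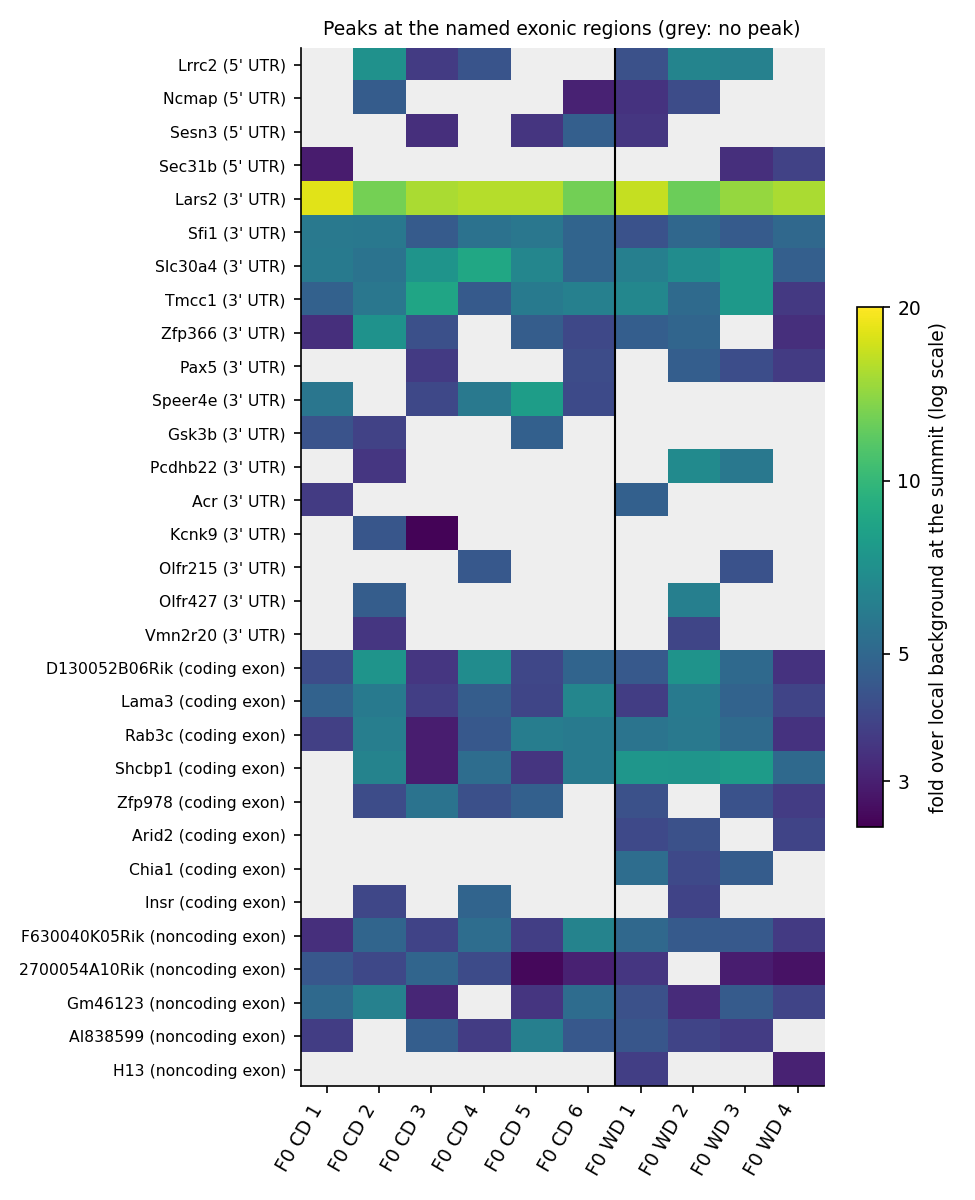
Fold of the reads at the summit over the local background (colour, log scale) for the named exonic regions, in rows grouped by class, in the 6 F0 CD and 4 F0 WD libraries, divided by a black line. Grey marks a library with no peak. Lars2 stands out with folds of 12.57 to 18.19 in all 10 libraries. Chia1, Arid2, Speer4e, Gsk3b, H13 and Kcnk9 have peaks in the libraries of a single diet. Of these, Chia1, Arid2 and Speer4e passed the unadjusted Fisher threshold.

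The diets were compared region by region by the number of libraries with a peak (Fisher's exact test, two-sided, unadjusted p under 0.05, F0 CD n = 6, F0 WD n = 4). Over all 24550 consensus regions, 137 (0.558%) passed towards F0 WD and 116 (0.473%) towards F0 CD. Of the 565 exonic regions, 2 (0.354%) passed towards F0 WD and 1 (0.177%) towards F0 CD, shares not above these backgrounds. A region with a peak in exactly 2 libraries cannot pass, since its smallest possible Fisher's exact p is 0.133. Such regions were 63.5% of the exonic and 45.5% of the other consensus regions, so the shares that passed cannot be compared directly. After Benjamini-Hochberg adjustment over all consensus regions no exonic region passed. The smallest Fisher's exact p that 6 and 4 libraries allow is 0.00476, so with 24550 regions the adjustment could hardly pass any. Peaks of both diets were found at 382 exonic regions, of F0 CD alone at 134 and of F0 WD alone at 49, which is 67.6%, 23.7% and 8.67% of them. Of the other consensus regions 72.9%, 21.9% and 5.21% fell in these 3 sets, and the difference was not tested. These shares also depend on the number of libraries per region. More of the exonic regions had a peak in exactly 2 libraries, so these shares cannot be compared directly either. There were more F0 CD libraries, so the sets of the 2 diets cannot be set against each other.

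Both regions called towards F0 WD were coding exon regions with a peak in 3 F0 WD and no F0 CD library (Fisher's exact p = 0.0333, adjusted p = 1). The region at chr3:106128875-106129227 overlapped exon 8 of 11 of Chia1, the acidic mammalian chitinase, with its summit in the intron. It had 30, 13 and 17 reads in F0 WD 1, 2 and 3 and no peak in F0 WD 4. The region at chr15:96370231-96370551 lay inside exon 15 of 21 of Arid2, a subunit of the PBAF chromatin remodelling complex, an exon of 2843 bases. It had 16, 12 and 19 reads in F0 WD 1, 2 and 4 and no peak in F0 WD 3. Each call was lost when any of the F0 WD libraries with a peak was left out (Fisher's exact p = 0.0833), and Arid2 also without F0 CD 3 and F0 WD 4 together (Fisher's exact p = 0.107). Since the smallest called summits rest on 9 to 13 reads, the lower of these values stood near that limit.

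The region called towards F0 CD lay in the 3' UTR of Speer4e, of a family of testis-expressed glutamate-rich proteins, at chr5:14933810-14934086. It had 29, 21, 20, 36 and 16 reads in F0 CD 1, 3, 4, 5 and 6, and no peak in F0 CD 2 or in any F0 WD library (Fisher's exact p = 0.0476, adjusted p = 1). Without F0 CD 3 and F0 WD 4 the call was lost (Fisher's exact p = 0.143). F0 CD 2 had the longest list of all. The 50 bases around the summit occurred at 2 places in the reference, so reads from a near-identical copy cannot be told apart.

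Summits can fall outside the exon that places a region in its class. In 312 of the 565 exonic regions (55.2%) the strongest summit lay in an exon, in 246 (43.5%) in an intron and in 7 (1.24%) in intergenic sequence. This differed between the classes. The summit lay in a 3' UTR in 133 of the 182 3' UTR regions (73.1%) and in a noncoding exon in 62 of 87 noncoding exon regions (71.3%), but in coding sequence in 98 of 286 coding exon regions (34.3%). In 186 coding exon regions (65%) it lay in the intron, at a median of 114 bp from the exon, and there exon made up a median of 18.2% of the region. The regions differed in their exons accordingly. The exon had a median length of 2498 bases for 3' UTR, 1749 bases for noncoding exon, 166 bases for coding exon and 197 bases for 5' UTR regions, and it was the last exon in 79.7%, 69%, 10.5% and 10% of them.

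Summits were counted per megabase of each kind of sequence, which does not depend on how regions were merged. Outside promoter windows chromosomes 1 to 19 held 24.8 Mb of 3' UTR, 15.2 Mb of coding exon, 13.7 Mb of noncoding exon, 0.416 Mb of 5' UTR and 837 Mb of intron. Exons held 6.44 ± 1.37 summits per Mb (SD, n = 10) and introns 8.42 ± 2.29. The ratio of exon to intron was 0.772 on average, a log2 ratio of -0.37 that was negative in 9 of 10 libraries and 0.07 in F0 WD 4 (exact sign-flip p = 0.00391). The density was lower than in introns in 3' UTRs (ratio 0.685, adjusted p = 0.00293, exact sign-flip test) and in noncoding exons (ratio 0.66, adjusted p = 0.00293), in 10 of 10 libraries each. In coding exons the ratio of 1.01 did not pass (exact sign-flip p = 0.865), and the log2 ratios of single libraries ran from -0.30 to 0.54, highest in F0 WD 4 and F0 CD 3 (0.48). 5' UTRs were not tested, since 3 libraries had no summit in them. The log2 ratio of exon to intron averaged -0.42 ± 0.17 (SD, n = 6) for the control diet and -0.30 ± 0.26 (SD, n = 4) for the Western diet, a difference of 0.12 that did not pass (exact permutation p = 0.424).

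These densities depended on repeats. Repeat-masked bases, marked in lower case in the reference, held most summits in 8 of the 10 libraries, and introns are richer in them: 69.9% of intronic bases were unmasked against 95.3% of coding exon, 82% of 3' UTR and 77.7% of noncoding exon bases. When only unmasked bases and the summits in them were counted, the direction for all exons turned: the ratio to introns was 1.18, above 1 in 10 of 10 libraries (exact sign-flip p = 0.00195). Coding exons then had 1.66 times the summit density of introns (adjusted p = 0.00293, exact sign-flip test, 10 of 10 libraries), with log2 ratios of 0.62, 0.47, 0.93, 0.76, 0.78 and 0.54 in the F0 CD libraries and 0.80, 0.68, 0.66 and 1.07 in the F0 WD libraries. Noncoding exons stayed below introns (ratio 0.879, adjusted p = 0.00293, exact sign-flip test), and for 3' UTRs the difference was no longer past the threshold (ratio 0.985, p = 0.717, exact sign-flip test).

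**Figure D4:**
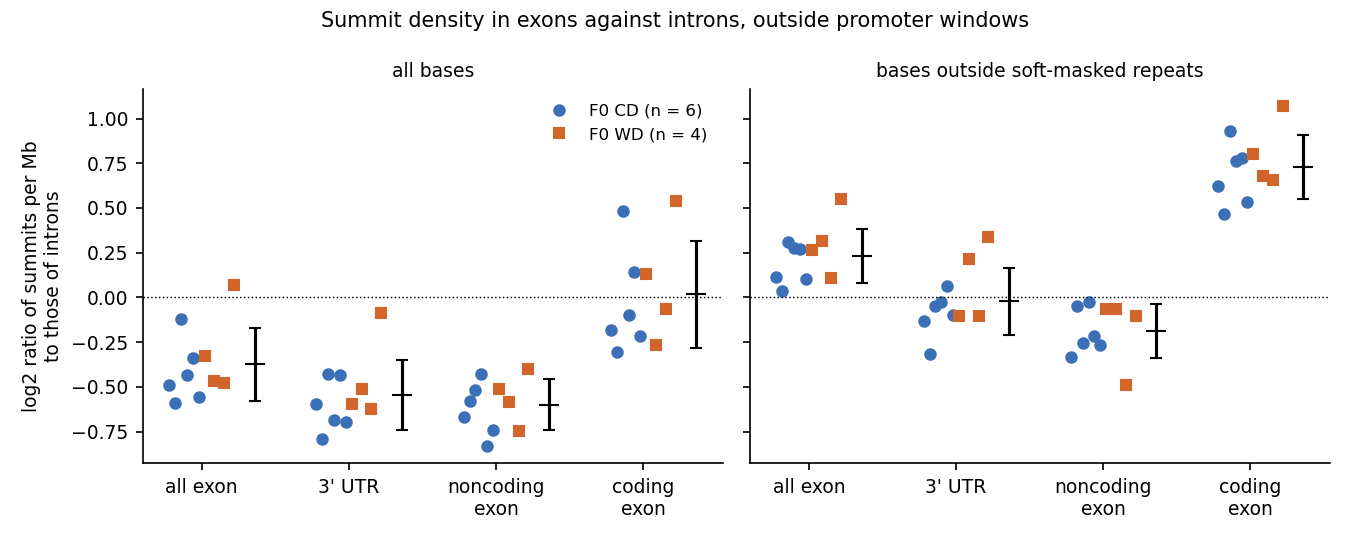
Log2 ratio of ATAC-seq summits per Mb in exons to those in introns, for all exons and 3 classes, outside promoter windows, counted over all bases (left) and over bases outside soft-masked repeats (right). Circles are F0 CD libraries (n = 6), squares F0 WD libraries (n = 4), and bars the mean and SD of the 10 libraries. Coding exons average 0.02 over all bases and 0.73 over unmasked bases, with every library above 0 in the latter.

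Within coding sequence, summits were denser in long exons. Coding bases in exons of 1000 bases or longer made up 25.7% of all coding bases outside promoter windows, whereas 51 of the 109 exonic regions with their summit in coding sequence (46.8%) had it in such an exon. Counted over all summits, the density in long exons was 1.5 times that in shorter exons (log2 ratio 0.59, exact sign-flip p = 0.00391), higher in 9 of 10 libraries and at a log2 ratio of -0.02 in F0 CD 4. Over unmasked bases the ratio was 1.54 (exact sign-flip p = 0.00195). Arid2 and D130052B06Rik belong to this group, as do both regions in a 7747-base exon of Zfp398, a zinc finger gene, and both in a 3592-base exon of Muc6, a gastric mucin.

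The sequence of the exonic regions differed from that of the other consensus regions. A median of 17.3% of their bases was repeat-masked, against 70.5% of the others, and their GC content was 51.9% against 46%, while their widths were alike, with medians of 345 and 356 bp. Library by library, the median masked share was 15.2% to 39.1% for the exonic regions with a peak and 75.5% to 79.9% for intronic and intergenic ones (mean difference -49.8 percentage points, exact sign-flip p = 0.00195). Among regions in at least 3 libraries the mean difference was -23.9 percentage points (exact sign-flip p = 0.00195). Masking is fixed in the reference. Outside promoter windows 60.7% of intergenic and 69.9% of intronic bases were unmasked, against 77.7% (noncoding exon) to 95.3% (coding exon) in the exon classes. Some difference in masking therefore follows from the definition of an exonic region, and how much was not tested. The median masked share was 8.29% for coding exon, 17.4% for 5' UTR, 21.7% for 3' UTR and 47.3% for noncoding exon regions. No base was masked in 95 coding exon regions (33.2%), against 7.35% of the other consensus regions.

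Runs of CA or TG dinucleotides, a kind of simple repeat, were unequally spread over the classes. A run of at least 10 units lay in 192 exonic regions (34%) and in 47.3% of the other consensus regions, and the share per library was lower than in intronic and intergenic regions by 12 percentage points on average (exact sign-flip p = 0.00195, 10 of 10 libraries). For regions in at least 3 libraries this difference was -2.78 percentage points (exact sign-flip p = 0.00195). Runs are fixed in the reference, and the windows given below held fewer of them in exons than in introns. Some of the difference therefore follows from the definition of an exonic region, and how much was not tested. Libraries share regions, so the p-values cover the spread between libraries only. A run was found in 57 of the 133 regions with their summit in a 3' UTR (42.9%). It was found in 29 of the 68 with their summit in a noncoding exon (42.6%), and both were near the 48.7% of regions with an intronic summit. Of the 109 regions with their summit in coding sequence, 3 held such a run (2.75%). For comparison, a run lay in 1.88% of all 345-bp windows centred in 3' UTRs, 2.07% of those in noncoding exons, 3.71% of those in introns and 0.915% of those in coding exons. The summit of a 3' UTR region with a run within 300 bp was at a median of 27 bp from it. In coding exon regions with an intronic summit a run was present in 74 of 186 (39.8%). The Shcbp1 summit lay in shorter, interrupted CA repeats that do not reach 10 units.

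**Figure D5:**
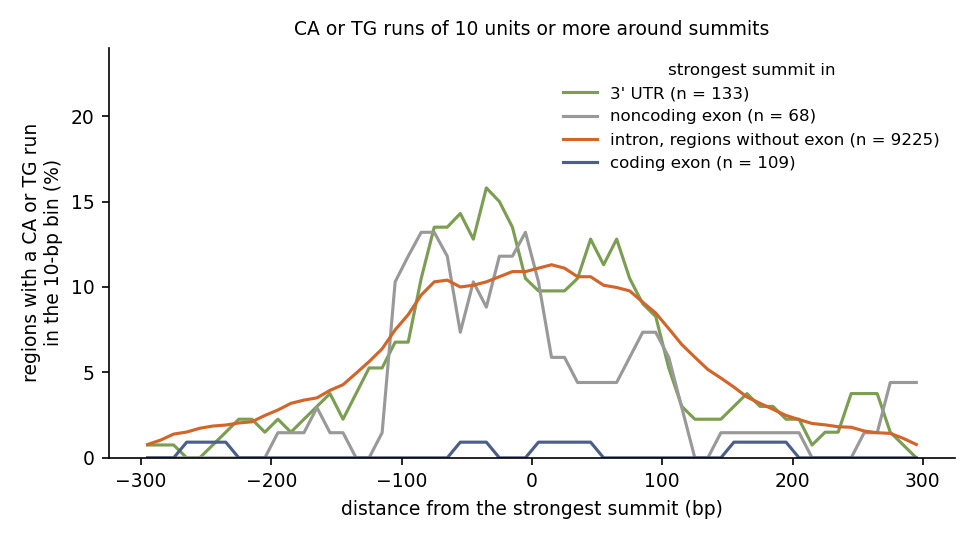
Share of regions with a CA or TG run of at least 10 units in each 10-bp bin (vertical axis, percent) by distance from the strongest summit (horizontal axis, bp), by the sequence that holds the summit. Around summits in 3' UTRs (n = 133) the share reaches 15.8%, around those in noncoding exons (n = 68) 13.2% and around those of intronic regions (n = 9225) 11.3%, and around summits in coding exons (n = 109) it stays at or below 0.917%.

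A core of the CTCF motif, AGNNGGCGC on either strand, was present within the 200 bp around the summit in 3 of the 565 exonic regions (0.531%) and in 59 of all 24550 consensus regions (0.24%). The 3 were in Ece1 (3' UTR), Megf6 and Cic (coding exon), each with peaks in 2 libraries. Only exact copies of the 50 bases around the summit were counted, so a single match does not show that reads map uniquely. These 50 bases matched the reference once in 531 exonic regions. They matched 2 or more times in 34 (6.02%), against 7.4% of the other consensus regions. Noncoding exon regions had such repeated sequence in 11 of 87 (12.6%). Among regions with a peak in 5 or more libraries it was found in 11 of 80 exonic regions (13.8%), against 8.83% of the others. Among exonic regions in exactly 2 libraries the share was 4.18%. The region in the 3' UTR of Vmn2r20, a vomeronasal receptor, matched 815 places and is uncertain for that reason. Shorter stretches of 30 bases around the summit were counted over every sequence of the reference, scaffolds included. They occurred at 4975 places for Ncmap, 275 for AI838599, 26 for Sesn3 and 5 for F630040K05Rik. For Shcbp1 and D130052B06Rik there were 3 places, for Slc30a4, Sfi1, Speer4e and Lars2 2, and for the others examined 1.

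Among 5' UTR regions, 7 of 10 had their summit in the intron and none was found in more than 6 libraries. Lrrc2 had peaks in 6 libraries, with 26, 20 and 18 reads in F0 CD 2, 3 and 4 and 20, 20 and 21 reads in F0 WD 1, 2 and 3. Ncmap, a protein of myelinating Schwann cells, had 20 and 14 reads in F0 CD 2 and 6 and 15 and 13 reads in F0 WD 1 and 2. Sesn3, a stress-induced regulator of the mTORC1 pathway, had 17, 15 and 19 reads in F0 CD 3, 5 and 6 and 14 reads in F0 WD 1. Sec31b, a component of the COPII vesicle coat, had 15 reads in F0 CD 1 and 10 and 17 reads in F0 WD 3 and 4, with its summit in the 5' UTR itself. In none of these 4 did the libraries with a peak divide by diet.

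The exonic regions lay in 545 genes, 485 of them among 20780 protein-coding genes (2.33%), and 20 genes had 2 regions each. They included Adamts10, Col14a1, D630045J12Rik, Dchs2, Fbxl7, Gm9573, Grik3, Lrp1, Mroh2a, Muc6, Ndst1, Otog, Pkp4, Ptpn13, Slco5a1, Tmcc1, Tnr, Zfp398 and Zfp992. Gene lists were read against the 2.33% of all protein-coding genes, as a description that takes no account of exon length. Of 53 sperm and spermatid genes, only Acr, the acrosomal protease acrosin, had a region, with 19 reads in F0 CD 1 and 21 in F0 WD 1. None of 35 epididymal, 26 immune cell or 87 histone genes had one. Of 102 genes of insulin signalling and energy metabolism 3 did (2.94%): Gsk3b, a kinase that inhibits glycogen synthase, Insr, the insulin receptor, and Ucp3, a mitochondrial carrier of muscle. Gsk3b had 21, 12 and 21 reads in F0 CD 1, 2 and 5 and no peak in F0 WD (Fisher's exact p = 0.2). The Insr region had 15, 18 and 13 reads in F0 CD 2, F0 CD 4 and F0 WD 2, but exon made up 1.38% of it and its summit was intronic.

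Of 45 imprinted genes, a list not limited to protein-coding genes, 4 had an exonic region (8.89%): H13, Kcnk9, Kcnq1ot1 and Rasgrf1. H13, a signal peptide peptidase, had 15 and 16 reads in F0 WD 1 and 4, and Kcnk9, a potassium channel, 15 and 13 reads in F0 CD 2 and 3. Neither of these patterns passed the diet test (Fisher's exact p = 0.133 and 0.467). Of 137 developmental transcription factors, 1 had a region, in the 3' UTR of Pax5, a regulator of B cell identity, with 22 and 19 reads in F0 CD 3 and 6 and 14, 17 and 20 reads in F0 WD 2, 3 and 4. C2H2 zinc finger genes had 18 regions in 16 of 438 genes (3.65%), led by Zfp366 with peaks in 8 libraries (15 to 27 reads) and Zfp978 in 7 (13 to 29 reads). Olfactory receptors had regions in 3 of 1100 genes (0.273%), among them Olfr427 and Olfr215 with peaks in 1 library of each diet. Regions were found in 1 of 326 vomeronasal receptors (0.307%) and in 1 of 67 protocadherins (1.49%), Pcdhb22, with 11 reads in F0 CD 2 and 20 and 18 reads in F0 WD 2 and 3. No region in any of these 11 lists was called between the diets.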

How the data were processed

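The series holds 1 ATAC-seq peak list of cauda epididymal sperm per male, from 6 F0 CD and 4 F0 WD animals. The authors' processing, per the methods and the labels, used Trim Galore 0.6.10 for trimming, Bowtie2 2.4.5 for alignment to mm10, Picard 2.24.0 for duplicates, a mapping quality of at least 5, the transposase shift and fragments of 50 to 115 bp. Peaks were called per library with MACS2 2.2.7.1 at q 0.05. Of the deposited columns, the score is MACS2's whole-number score, the fold is a ratio of summit reads to local background with a pseudocount of 1, and the −log10 columns are the authors' p and q values. Without read counts, the count model of the study could not be fitted.

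Reads at a summit were recovered from each fold and its Poisson p where −log10 p was under 60, and all 182970 summits tried gave a whole number within 0.001 of the −log10 p. These are reads whose 200-bp window covered the summit. Peak presence per region was compared by Fisher's exact test with Benjamini-Hochberg adjustment over all consensus regions, diet differences of library values by exact permutation, and differences within libraries by exact sign flips over 1024 sign patterns. Libraries share regions, so these p-values cover the spread between libraries only. The members and lists were chosen with earlier results of these data known. The text names, per class, the 4 regions in most libraries, all regions past the Fisher threshold, and up to 2 per gene list. More than 3 genes tied for most regions, so these are listed by name only, with 1 not reported here. Long exons, masked bases, repeats and sharing between libraries were tested after the data were seen. The tests were checked on simulated data. Alternatives were the q threshold, list length, promoter window, libraries required, merging gap, exon overlap, transcript set, class order, mid-p, summits counted, the replicate number as a block and leaving out each library. Sequence and soft masking came from the RefSeq release of GRCm38, with Python 3.11.15, numpy 2.4.6, scipy 1.17.1 and matplotlib 3.10.9.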

Additional observations from a re-analysis of the deposited data

Results flagged for a closer look

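Among 55 sets of 4 to 6 library values of 1 diet examined for a value far from its group, 3 stood apart, and chance alone gives about 1 in 20. The share of exonic regions among the consensus regions with a peak was 2.45% in F0 WD 4, against 1.8% to 1.9% in the other F0 WD libraries. The noncoding exon share of the exonic regions was 17.9% in F0 WD 2, against 16% to 16.2% in the others. The Tmcc1 3' UTR region had 52 reads at its summit in F0 CD 3, against 17 to 29 in the other F0 CD libraries. F0 CD 3 and F0 WD 4 are also the libraries with the lowest share of intervals in consensus regions and the lowest share of summits at masked bases, and the part of this in the F0 WD 4 share and the Tmcc1 value was not tested.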

How the results depend on the processing

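The rank difference and the exon to intron density kept their direction and stayed past the threshold under every alternative of the methods, and no diet difference of a library value passed under any. With equal list lengths the rank difference moved from -9.16 to -4.96, and the log2 density ratio moved from -0.373 to -0.57. Over bases outside repeats, added after the data were seen, the density ratio turned from a log2 value of -0.373 to 0.234. The 2 regions called towards F0 WD became 1 with at least 50% of the region in exons, 1 with the summit in an exon, 1 without F0 CD 3 and F0 WD 4 together, 5 with basic transcripts and 6 when promoters reached 1 kb. The 1 called towards F0 CD became 4 by mid-p and 0 without F0 CD 3 and F0 WD 4. Leaving out each library gave 0 to 4 calls towards F0 WD (0 without F0 WD 1 or F0 WD 2, 4 without F0 CD 2) and 1 to 4 towards F0 CD (4 without F0 CD 6).

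Diet differences that missed the threshold changed sign as follows, each as F0 WD minus F0 CD. Regions per library differed by 9.42 with equal list lengths and by -12.8 to 5.45 with a library left out. The 5' UTR share became -0.139 percentage points with 50% exon. The 3' UTR share became 0.692 at q under 0.01, 0.444 with equal lists, 0.409 with 3 libraries required, 0.413 with 50% exon, 1.1 with coding exon first in the order and 0.423 with the 1 kb window, and lay between -1.68 and 0.759 with a library left out. The coding exon share became -0.398 with equal lists, -3.12 with 3 libraries required and -0.828 with coding exon first, and lay between -1.42 and 2.15 with a library left out. The noncoding exon share became 1.96 with 3 libraries required and lay between -1.36 and 0.819. The density difference lay between -0.00394 (without F0 WD 4) and 0.179.

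The log2 ratio of coding exon to intron density over all libraries, 0.0168, became -0.0873 at q under 0.01, -0.287 with equal lists and -0.107 without F0 CD 3 and F0 WD 4, and lay between -0.0411 and 0.0522 with a library left out. In no case was the cause tested.

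Same-numbered libraries of the diets did not vary together (correlations of -0.011 to 0.034), so the numbers were not taken as pairs. With the replicate block the 3' UTR share differed by 0.511 percentage points, and no diet difference passed, which 4 pairs do not allow (smallest exact sign-flip p 0.125). Peak lists carry no depth, and sites under 9 to 13 reads cannot appear in them.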

Other observations

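Chromosome X was not part of the comparisons. By the same definition it held 58 consensus regions, of which 2 were exonic and outside promoters.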
